A study of Mus musculus with 3 samples.

Results

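Decorin-rich fibroblasts low in Otos are connective tissue cells of the cochlea of mice at postnatal day 7 (P7). They carry many transcripts of decorin (Dcn) and few of otospiralin (Otos), a secreted protein made in bulk by cochlear fibrocytes. The members were chosen from the P7 library by their own counts of unique molecular identifiers (UMIs, 1 per captured mRNA molecule). A cell needed at least 500 detected genes, at most 20% mitochondrial UMIs, and no UMI of Epcam, Cdh5, Sox10 or Ptprc, which mark epithelial, endothelial, glial and blood cells. It also needed at least 10 UMIs of Dcn and 3 of Col1a2, under 0.3% of its UMIs from Otos, under 0.3% from Emilin2, under 1% from Bglap, Bglap2 and Ibsp together, and under 10 UMIs of Cnmd. This rule kept 1293 cells of 8141 barcodes in the P7 library and 15272 in the series. They were 17.8% (exact 95% interval 16.9 to 18.7%) of the 7262 P7 cells past the limits on genes and mitochondrial UMIs.

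Whole cochleae of wildtype C57BL/6J mice were profiled at P7 in 1 library and at embryonic day 15 (E15) in 2 libraries. All were dissociated with papain and thermolysin, sorted against debris and captured with the Chromium 3′ v3 kit, which reads the 3′ ends of transcripts. No treatment was given, and how many animals entered a library is not given in the sources used here. The P7 value of each gene has no replicate, and intervals cover counting error only. Whether the E15 libraries came from separate litters is not stated, so their spread may be technical.

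Fibroblasts build and maintain the extracellular matrix of soft connective tissue. Decorin and lumican (Lum) are small leucine-rich proteoglycans, secreted proteins that sit on collagen fibrils and help to set their width and spacing. Col1a2 and Col3a1 encode chains of the fibrillar collagens I and III. In the cochlea, fibroblasts and the more specialised fibrocytes fill the lateral wall and spiral limbus and line the spaces around the membranous duct, and fibrocytes recycle potassium.

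The sequences below show the start sites of 3 genes on which the results turn: Gcg, which was not counted in a decorin-rich cell at E15 and led a cluster of these cells at P7, and the marker collagens Col1a2 and Col3a1. Each run holds the 250 bases before the RefSeq transcript start (GRCm38.p6), on the gene's own strand. Capitals mark matches to TATAAA (the word of a promoter box that places the start) or CCAAT (the word of the box with that name) on either strand. The AP-1 word (TGA and TCA with any 1 base between) was searched too, and no window below holds it.
Gcg, chr2:62483654-62483903, minus strand: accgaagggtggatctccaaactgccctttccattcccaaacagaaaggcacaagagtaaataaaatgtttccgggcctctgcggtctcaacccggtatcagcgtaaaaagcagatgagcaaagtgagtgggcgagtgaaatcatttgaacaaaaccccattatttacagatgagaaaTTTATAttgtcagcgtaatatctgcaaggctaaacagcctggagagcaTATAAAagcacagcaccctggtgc
Col1a2, chr6:4505368-4505617, plus strand: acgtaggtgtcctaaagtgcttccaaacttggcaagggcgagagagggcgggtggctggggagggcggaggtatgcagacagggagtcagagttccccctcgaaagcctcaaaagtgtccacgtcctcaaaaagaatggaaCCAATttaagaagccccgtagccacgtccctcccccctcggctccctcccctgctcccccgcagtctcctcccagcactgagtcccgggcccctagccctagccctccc
Col3a1, chr1:45311288-45311537, plus strand: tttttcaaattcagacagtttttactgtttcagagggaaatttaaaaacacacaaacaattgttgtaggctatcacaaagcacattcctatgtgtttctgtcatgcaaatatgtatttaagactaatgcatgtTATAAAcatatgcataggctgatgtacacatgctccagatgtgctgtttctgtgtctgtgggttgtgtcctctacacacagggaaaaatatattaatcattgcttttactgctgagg
Gcg holds TATAAA at base -24 from the start and, on the other strand, at -72. Col1a2 holds CCAAT at -109 and Col3a1 holds TATAAA at -117. Of 32851 RefSeq promoter windows of the same length, 12.4% hold TATAAA, 33.9% hold CCAAT and 6.75% hold the AP-1 word. In the GENCODE M21 annotation of GRCm38, the protein-coding gene Gcg spans 62474530 to 62483650 on the minus strand of chromosome 2 and overlaps no other gene. Dcn spans 97479609 to 97518143 and Lum 97565128 to 97572703 on the plus strand of chromosome 10. Kera, another proteoglycan gene of the same family, follows on the same strand at 97606879 to 97613692.

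The members matched the label by their markers. Dcn and Col1a2 were part of the rule, so their levels only describe the choice. A member held a median of 45 UMIs of Dcn (quartiles 22 and 110, highest 564) and 56 of Col1a2. Lum, which the rule did not use, had a median of 6 UMIs (quartiles 0 and 21), and Col3a1 had 13 (quartiles 7 and 29). A Lum UMI was seen in 72.5% of members and a Col3a1 UMI in 99.2%. All 4 markers were seen together in 72.1% of members, against 37.4% of Otos-rich and 2.74% of Emilin2-rich cells. Otos had a median of 1 UMI and was absent from 39.7% of members.

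The summed level of Lum, as CPM (UMIs scaled to the same total in every cell group), was 1253 (95% interval 1235 to 1271) in the members. It was 162 in the 446 Otos-rich cells, 18.4 in the 474 Emilin2-rich cells, 133 in the 433 Cnmd-rich cells (which were also rich in Otos, at 47810 CPM) and 530 in the 339 cells rich in Bglap or Ibsp. Col3a1 stood at 1847 CPM in the members, 784 in Otos-rich, 76.2 in Emilin2-rich, 689 in Cnmd-rich and 245 in Bglap- or Ibsp-rich cells. Both markers were thus highest in the decorin-rich cells among the P7 connective tissue groups named here. Droplets also catch free RNA, so levels in 560 endothelial, 105 macrophage and 685 epithelial cells of the same library are given beside those of the members. In these 3 classes free RNA and the cells' own transcripts cannot be told apart. Dcn was at 663 to 2390.5 CPM in those cells against 6875 in the members, and Col3a1 at 132 to 626. Lum was at 114 and 169 CPM in macrophage and endothelial cells and at 1715 in epithelial cells, above the members. After each cell was thinned to 3000 UMIs, 60.6% of the 1261 members deep enough had a Lum UMI and 90.7% had a Col3a1 UMI. The same shares were 15.1% and 43.7% in 819 thinned Otos-rich or Emilin2-rich cells.

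**Figure D1:**
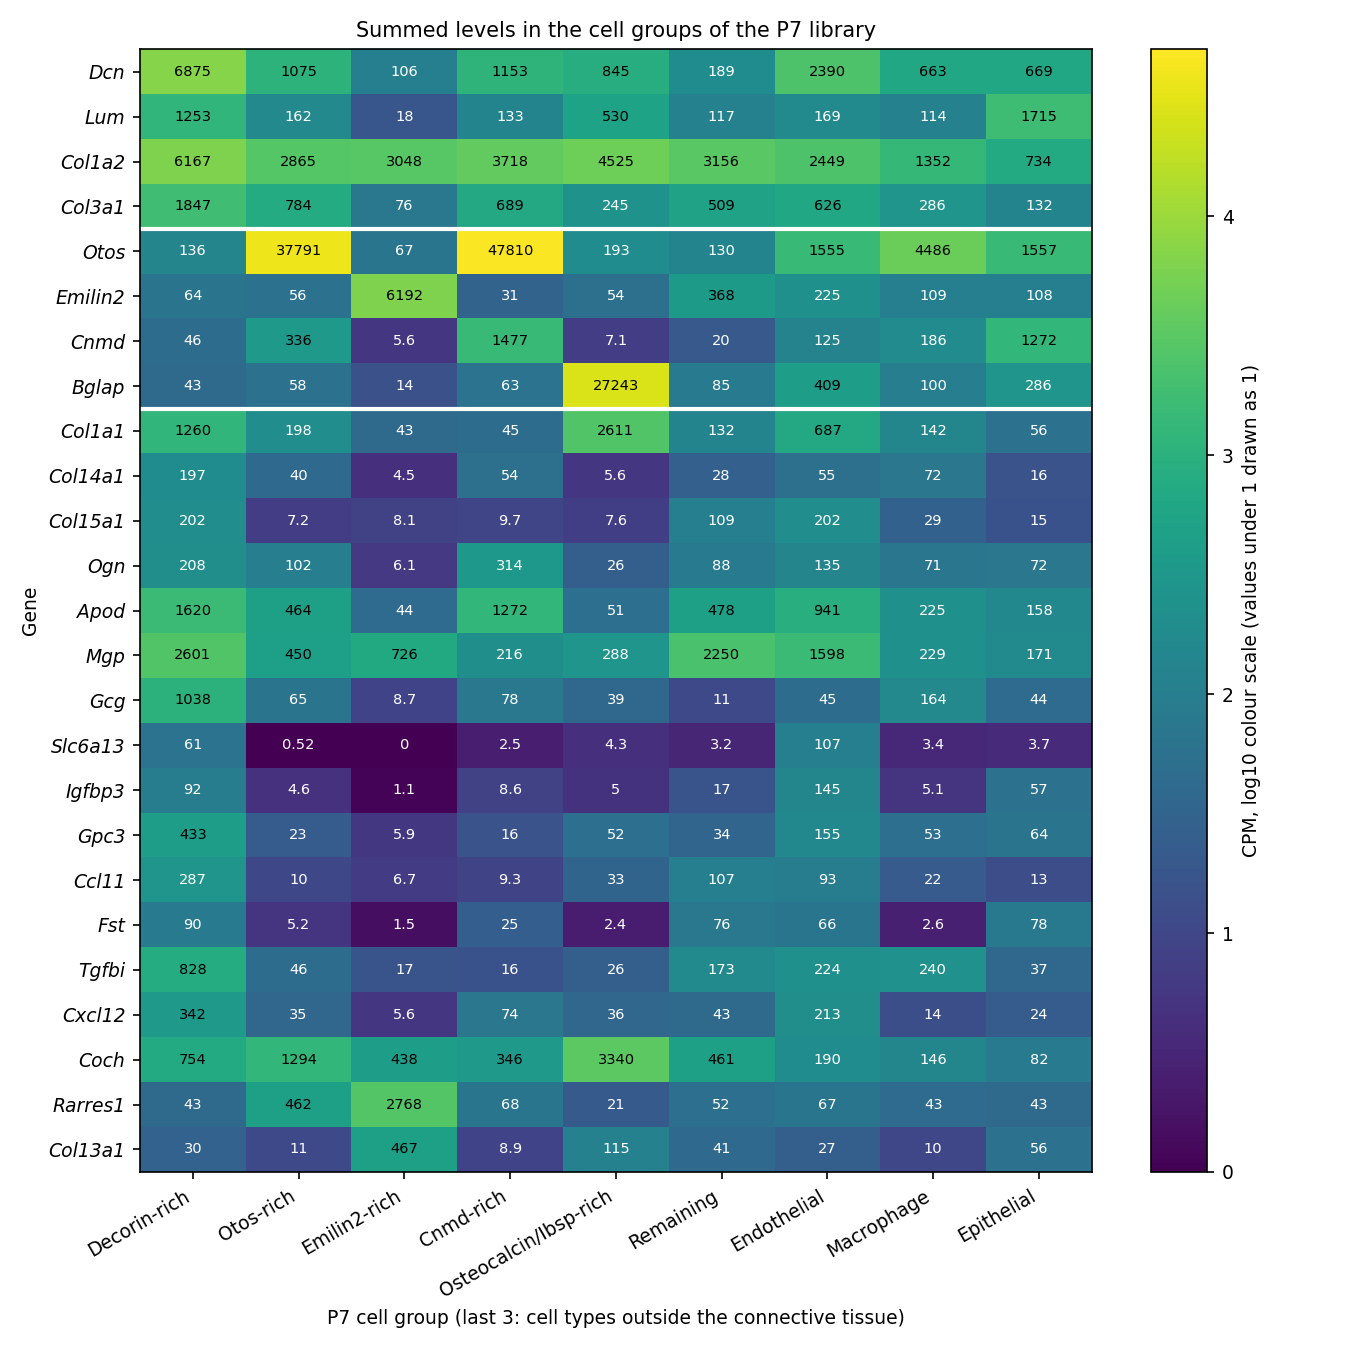
Levels of 25 genes (rows) in 9 cell groups of the P7 library (columns), as CPM of summed UMIs on a log10 colour scale with the CPM printed in each field, each group being 1 library. The top 4 rows are the label's markers, the next 4 are genes used to separate the groups, and Lum falls from 1253 CPM in decorin-rich cells to 18.4 in Emilin2-rich cells while epithelial cells stand at 1715.

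Cells lay on both sides close to the threshold of 10 UMIs of Dcn. The 156 members with 10 to 14 UMIs of Dcn had 404 CPM of Lum and 756 of Col3a1. The 240 cells with 5 to 9 UMIs that met every other criterion had 314 and 742. The 1137 members with 15 or more had 1350 and 1972.

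The members held 15215780 UMIs in all, with a median of 11455 UMIs, 3515 genes and 4.11% mitochondrial UMIs per cell. The P7 library held 93829443 UMIs and the E15 libraries 46530036 and 44304364, and pairs of libraries shared 3 to 6 barcodes. The automatic threshold of the doublet caller marked 3 to 7 cells a library, which is no working call, so doublets were kept. By doublet score, 35 members (2.71%) were among the 422 highest cells of the library. Markers of other cell types were low but not absent, in sums that leave out Ptprc, Cdh5, Epcam and Sox10. The 11 macrophage genes left summed to 40.6 CPM in the members and 25781 in macrophages. The endothelial list summed to 263 against 4403, and the epithelial list to 53.0 against 6519. Haemoglobin and other red cell genes summed to 744 CPM, glial genes to 699 and pericyte and smooth muscle genes to 326.

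At P7 most proteoglycan and collagen genes stood higher in the decorin-rich cells than in neighbouring connective tissue cells. The decorin-rich cells were set against the 920 Otos-rich and Emilin2-rich cells. With 1 library there is no test, and the contrast shares its cells with the rule, so the values are a description. Of 6471 genes with at least 20 CPM on either side, 449 (6.94%) stood at least 2-fold higher in the decorin-rich cells and 291 (4.50%) at least 2-fold lower. The median log2 ratio over all of them was 0.13.

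Among small leucine-rich proteoglycans other than Dcn, 5 of 6 with a level were at least 2-fold higher and 1 was lower, with a median log2 ratio of 2.57. Lum was 19.3-fold the comparison level. Prelp, which anchors matrix to basement membranes, stood at 28.6 CPM, 13.6-fold. Omd and Ogn, both known from mineralised and dense connective tissue, stood at 53.4 and 208 CPM, 6.30-fold and 5.56-fold. Bgn, the closest relative of decorin, stood at 203 CPM and 3.26-fold.

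Most collagen chains were higher. Of 23 with a level, 15 were at least 2-fold higher and 1 was lower, with a median log2 ratio of 2.44. The summed level of the list did not differ as much. Without Col1a2 it was 21692 CPM in the members and 21292 in the comparison cells. Otos-rich cells stood at 42058, Cnmd-rich cells at 40085 and Emilin2-rich cells at 11268. Col15a1, a basement membrane zone collagen, stood at 202 CPM and 25.8-fold, and endothelial cells stood at 202 as well. Col1a1 stood at 1260 CPM and 13.5-fold, Col14a1, a fibril-associated collagen, at 197 CPM and 12.3-fold, and Col6a1 at 190 CPM and 9.52-fold. Cells rich in Bglap or Ibsp, which are outside the comparison, held more Col1a1 than the members, at 2611 CPM. Col13a1, a membrane-bound collagen, was the lower one, at 29.6 CPM against 467 in Emilin2-rich cells. Collagen processing genes did not follow: 1 of 18 was at least 2-fold higher, the procollagen C-endopeptidase enhancer Pcolce at 242 CPM and 15.1-fold. The median log2 ratio of that list was 0.12. Cells rich in Bglap or Ibsp had 225 CPM of Pcolce.

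Of matrix glycoproteins, 10 of 22 were at least 2-fold higher and 4 lower, with a median log2 ratio of 0.81. Tgfbi, a collagen-binding protein induced by TGF-beta, stood at 828 CPM (95% interval 814 to 843) against 26.2. The large proteoglycan Vcan stood at 68.0 CPM against 2.60. Fn1 went the other way, at 158 CPM against 844 in Emilin2-rich and 78.2 in Otos-rich cells. In the elastic fibre list 7 of 16 were higher and none lower, among them the calcification inhibitor Mgp at 2601 CPM against 636 and Fbln2 at 134 against 19.3.

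The gene with the largest ratio was Slc6a13, a GABA and taurine transporter. It stood at 61.1 CPM (57.2 to 65.1) against 0.17, a ratio of 363. It was seen in 9.82% of members, and endothelial cells stood higher, at 107 CPM. Pcp4, a calmodulin regulator, stood at 64.9 CPM and 51.5-fold, and Hpca, a neuronal calcium sensor, at 92.5 CPM against 1.85. Igfbp3, which binds insulin-like growth factors, stood at 92.3 CPM and 40.7-fold. Gcg, the proglucagon gene, stood at 1038 CPM (1022 to 1054) against 27.0, and at 43.7 to 164 in endothelial, macrophage and epithelial cells. The glypican Gpc3 stood at 433 CPM and 37.9-fold. The eotaxin gene Ccl11 stood at 287 CPM and 36.3-fold, and the chemokine gene Cxcl12 at 342 CPM and 22.5-fold. The activin antagonist Fst stood at 89.7 CPM and 33.4-fold, and the tendon membrane protein Tnmd at 95.3 CPM and 26.4-fold. The transcription factor Foxd1 stood at 144 CPM and 22.6-fold. Pcp4 stood higher in epithelial cells, at 429 CPM, and Igfbp3 and Foxd1 in endothelial cells, at 145 and 148. Fst stood near the members in epithelial cells, at 78.4, and in P7 cells of no named group, at 75.7. Hpca, Gcg, Gpc3, Ccl11, Cxcl12, Fst and Tnmd stood lower in all 3 classes than in the members.

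Several genes of the Emilin2-rich cells were low in the members. Kcnk3, a potassium channel, stood at 3.09 CPM against 564 in Emilin2-rich cells, the Wnt deacylase Notum at 25.2 against 992, and Rarres1 at 42.7 against 2768. Otos-rich cells stood near the members for Kcnk3, at 4.13 CPM, and Notum, at 30.7, and held Rarres1 at 462. For these 3 genes the members stood within or below the range of the endothelial, macrophage and epithelial cells, which was 6.81 to 12.6 CPM for Kcnk3, 15.3 to 66.7 for Notum and 42.8 to 66.7 for Rarres1. Of the cochlear fibrocyte list, 7 of 16 genes were at least 2-fold higher and 4 lower, with a median log2 ratio of 0.50. Otor, the secreted protein otoraplin, stood at 2504 CPM against 31525 in Otos-rich cells, and Coch, an abundant cochlear matrix protein, at 754 against 1294 in Otos-rich and 438 in Emilin2-rich cells. All 10 osteoblast genes with a level outside the rule were at least 2-fold higher, with a median log2 ratio of 3.06. They included the mineral regulators Phex at 156 CPM and Dmp1 at 332 CPM and the transcription factor Runx2 at 97.5 CPM. Ifitm5, a bone-restricted gene, stood at 53.0 CPM in the members and 2358.5 in the cells rich in Bglap or Ibsp.

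Of 20 TGF-beta genes, 4 were at least 2-fold higher and 3 lower. For BMP genes it was 4 and 5 of 18, including Gdf10 at 478 CPM and 7.48-fold. For Wnt genes it was 6 and 4 of 17, and for the insulin-like growth factor axis 4 and none of 14, including Igf2 at 699 CPM and 4.16-fold. For retinoic acid genes it was 5 and 4 of 13, including the synthetic enzyme gene Aldh1a2 at 87.0 CPM and 8.55-fold. Immediate early and stress genes were 1 higher and 4 lower of 21. Ptn, a heparin-binding growth factor, was abundant on both sides, at 14864 CPM and a ratio of 1.06.

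The decorin-rich cells were not uniform. Leiden clustering of their transcriptomes gave 9 clusters of 30 to 351 cells, described here with no test because the same counts formed them. Of the 25 genes with the largest ratios, 4 (Gpc3, Vcan, Pcolce and Tm4sf1) stood at least 2-fold over the comparison cells in every cluster. For 14 of the 25, over 50% of the members' UMIs came from 1 cluster. With Col1a2 included, unlike in the group sums above, collagen chains summed to between 20871 and 42085 CPM in clusters 1, 2, 3, 5, 6 and 8. In clusters 4, 7 and 9 they summed to between 4645 and 4963. Col1a1 ran from 2.10 CPM in cluster 9 to 4992 in cluster 5, and Lum from 17.5 in cluster 9 to 3049 in cluster 2. Col2a1, the cartilage and otic capsule collagen, stood at 7545 to 8674 CPM in clusters 1, 2, 3, 6 and 8, at 1327 in cluster 5, and at 332 to 740 in clusters 4, 7 and 9. Endothelial, macrophage and epithelial cells had 1903 to 2283 CPM of Col2a1.

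Cluster 2, with 351 cells (27.1%), was led by Gcg at 3843 CPM, seen in 90.6% of its cells, against 92.5 CPM in the other members. Transferrin (Trf, 3230 CPM), Enpp6, Smim41, angiotensinogen (Agt, 192 CPM) and Stxbp6 followed. It had the highest Dcn, 14348 CPM, and the highest Col1a2, 10136, Col3a1, 3631, and apolipoprotein D (Apod), 3754. It held 6 of the 13 fibrocyte genes seen in at least 20% of its cells (Gjb2, Gjb6, Slc12a2, Ecrg4, Slc7a8 and Tgfbi) at 2-fold or more over the other members, beside 4.63% of all genes seen as often. They were not among its 6 leading genes, and the cluster is left without a name. At a finer clustering (resolution 1) 42.5% of its cells stayed together in 1 cluster. High doublet scores were rare in it, at 0.855% of cells. Of all Gcg UMIs in the members, 93.3% lay in this cluster, and cluster 1 stood next at 517 CPM.

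Cluster 5, with 177 cells (13.7%), was led by the organic anion transporter Slc22a6, proenkephalin (Penk), Slc6a13 (484 CPM), prostaglandin D synthase (Ptgds, 5800 CPM), Fmo1 and Perp. With Foxd1 (538 CPM), Zic1 (71.3 CPM) and Gjb6 it held 6 of the 16 markers of meningeal-type fibroblasts seen in at least 20% of its cells at 2-fold or more, beside 4.72% of all genes seen as often. It also held 6 of 14 fibrocyte genes at that level, of which Gjb6 and Ptgds are on both lists, and 4 of 7 nerve sheath fibroblast genes. It is left without a name. Its Dcn was 11365 CPM and its Col1a1 4992. Of all Slc6a13 UMIs in the members 91.4% lay in it. Red cell genes summed to 1615 CPM there. The meningeal-type markers were not particular to it. Of those seen in at least 20% of the cells, 4 of 10 in cluster 7 and 5 of 9 in cluster 9 stood at 2-fold or more.

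Cluster 3, with 148 cells (11.4%), was led by Ifitm5 (393 CPM, in 31.1% of its cells), Car8, Ramp1, Cyp26a1, Panx3 and Snorc. Of the 11 osteoblast genes outside the rule seen in at least 20% of its cells, 9 were at 2-fold or more, beside 3.33% of all genes seen as often, among them Runx2, Sp7, Alpl, Spp1, Pth1r and Ifitm5, and it is called osteoblast-like. Its osteoblast genes, those of the rule included, summed to 10223 CPM. Runx2 stood at 405 CPM in it.

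Cluster 8, with 169 cells (13.1%), was led by Prss35, the elastic fibre protein fibulin 5 (Fbln5, 106 CPM), Fst (432 CPM), Moxd1 (236 CPM), Abi3bp and Clec11a. Ogn (708 CPM) and Omd (183 CPM) were high in it, as was Mgp (5696 CPM). Osteoblast genes were not confined to cluster 3. Of the 9 outside the rule seen in at least 20% of the cells of cluster 8, 4 (Runx2, Alpl, Dlx5 and Smpd3) stood at 2-fold or more. Over all genes seen as often it was 2.75%. Cluster 6, with 58 cells (4.49%), was led by Ucma (2035 CPM), Rarres1 (775 CPM), Plac8, Ttbk1, Fgfbp1 and Clca2. It held Otor at 18232 CPM and Car3 at 15150. Its fibrocyte genes, Otos and Emilin2 included, summed to 39022 CPM, although its cells had passed the limit on Otos. In Otos-rich cells the list summed to 46563 CPM with these 2 genes left out, so the sums are not like for like. Cluster 1, with 128 cells (9.90%), was led by the pericyte gene Rgs5 (329 CPM) and the cycling genes Pclaf, Top2a (90.7 CPM) and Birc5, then Acta2 and Cenpa, each in 6.25 to 20.3% of its cells. High doublet scores made up 7.81% of it. Helt, seen in 16.2% of members, stood at 347 CPM there, Dmp1 at 1166 and Mgp at 8408.

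Clusters 7 and 9, with 108 (8.35%) and 124 cells (9.59%), were poor in collagen. Of the 49 mesenchymal transcription factors listed, 31 were seen in at least 20% of the cells of cluster 7 and 11 of those stood at 2-fold or more over the other members. In cluster 9 it was 13 of 32. Over all genes seen as often, 6.41% and 6.42% stood that high. The summed level of the list was 8469 and 10011 CPM, against 8158 in cluster 4, with Osr2 at 138 and 149 CPM. Ccl11 stood at 1003 and 1058 CPM in them and Aldh1a2 at 631 and 231. Of adventitial-type fibroblast markers seen in at least 20% of the cells, 3 of 7 in cluster 7 and 5 of 8 in cluster 9 stood at 2-fold or more. Cluster 9 was led by Hrk, the microfibril protein Mfap5 (62.4 CPM), Tnfaip6 (622 CPM), Rspo1, Cntn1 and Des, held Igfbp3 at 465 CPM and Fos at 5556, and its stress genes summed to 28387 CPM. Cluster 7 was led by Gpr83, Lmntd1, Hbb-bs, Stxbp5l, Hbb-bt and Hba-a2, and its red cell genes summed to 5745 CPM. Cluster 4 had 30 cells (2.32%) and was led by Neat1 (1072 CPM), Syngr1, Chchd10, Wnt2, Slc9b2 and Atp1b1. It had a median of 6.52% mitochondrial UMIs, against 3.47 to 4.50% in the others, and 10.0% high doublet scores.

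**Figure D2:**
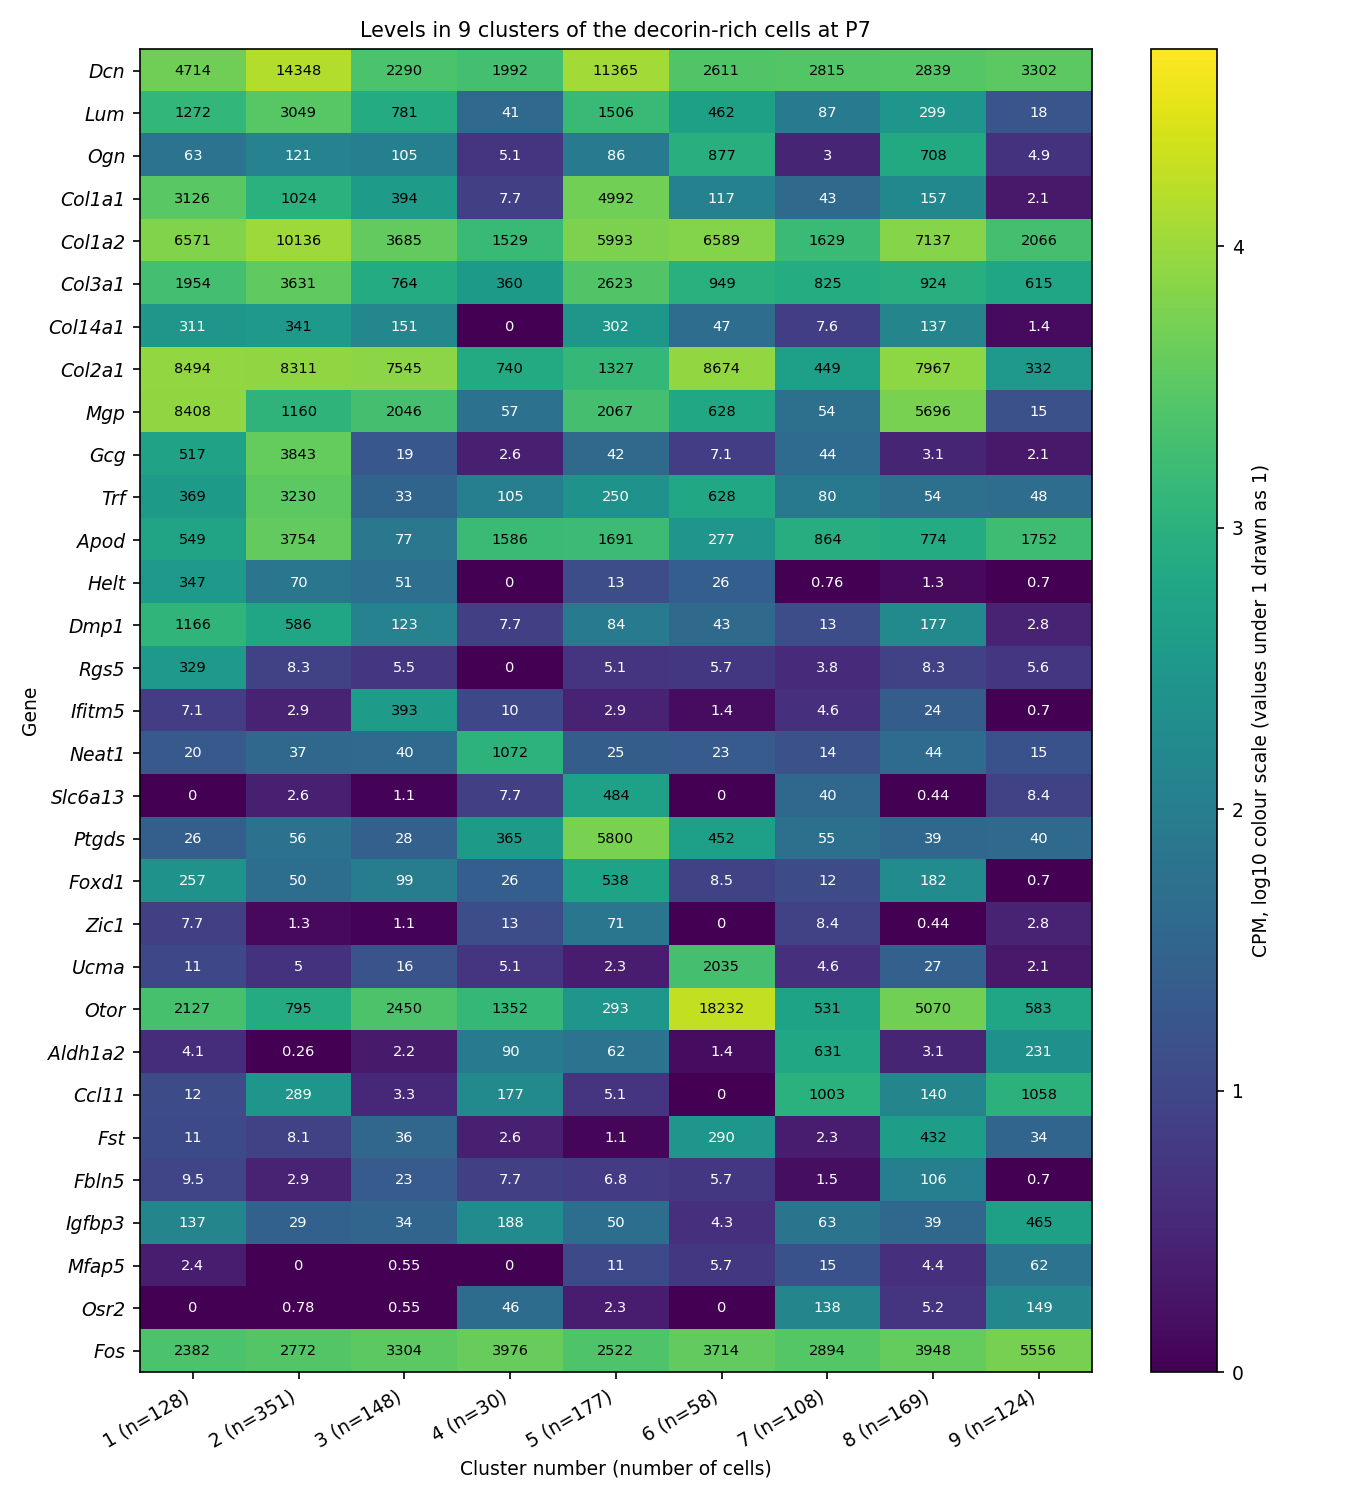
Levels of 31 genes (rows) in the 9 clusters of the decorin-rich P7 cells (columns, with the number of cells), as CPM of summed UMIs on a log10 colour scale with the CPM printed in each field, all from 1 library. Gcg stands at 3843 CPM in cluster 2 and at 517 or less elsewhere, Slc6a13 at 484 in cluster 5 and Ifitm5 at 393 in cluster 3, and Col1a1 falls to 2.10 in cluster 9.

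The same rule applied to the E15 libraries found 175 cells (6.17% of the filtered cells, 5.31 to 7.12%) in replicate 1 and 150 (4.24%, 3.60 to 4.96%) in replicate 2. These cells had medians of 16139 and 14000 UMIs, more than the P7 members, and 15 and 14.5 UMIs of Dcn. The rule's limits on Otos, Emilin2, Bglap, Bglap2, Ibsp and Cnmd took no E15 cell past the first filters, since none was Otos-rich, Emilin2-rich, Cnmd-rich or rich in Bglap or Ibsp. A Lum UMI was seen in 82.9% and 82.7% of them.

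To see how the genes that led at P7 stood at E15, the rule cells of each E15 library were compared with other cells. These passed the same filters and held at least 3 UMIs of Col1a2. Since no E15 cell was Otos-rich or Emilin2-rich, this is not the comparison made at P7, and the contrasts are not like for like. All other E15 cells past the filters had medians of 14306 and 10595 UMIs, fewer than the rule cells. The test was edgeR's quasi-likelihood test with the library as a block, and a gene was called when its Benjamini-Hochberg adjusted p was below 0.05 and its fitted change was 2-fold or more. Of 12457 genes tested, 110 (0.883%) were called higher and 279 (2.24%) lower in the decorin-rich cells, 389 (3.12%) in all, with a median log2 change of 0.0019. Of the 25 genes that led at P7, 19 could be tested, 1 was called higher, 3 lower and 15 neither. Their median log2 change was 0.03. For Igfbp7, not called at a log2 change of -0.46, the Dcn threshold decided the call: it was lower by edgeR with 20 UMIs (-4.82, adjusted p 6.24e-09) and with 0.1% of UMIs (-4.62, adjusted p 3.4e-15). Tm4sf1, at -0.62, was also called lower with 20 UMIs (-1.16, adjusted p 0.0358).

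The gene called higher was Lum, at 302 and 315 CPM in the decorin-rich cells of the replicates against 108 and 135 in the others (log2 change 1.40, SE 0.06, adjusted p 9.42e-78). Both libraries showed it. Gpc3 stood at 576 and 554 CPM against 473 and 474 (log2 change 0.30, SE 0.05), and Tgfbi at 215 and 181 against 219 and 198 (log2 change -0.03, SE 0.06). Fst was called lower, at 0 and 0.46 CPM against 6.25 and 5.04. Thbd, thrombomodulin, was called lower at 6.39 and 1.85 against 14.7 and 13.4. Without replicate 1 the log2 change of Fst was -3.36 and that of Thbd -2.80, and without replicate 2 they were -8.95 and -1.17. The calls for Fst and Thbd were lost with DESeq2, at adjusted p of 0.104 and 0.0699, and that for Thbd with a test against a fold of 2 (glmTreat), at 0.371. Ccl11 was called lower on 3.20 and 0 CPM against 2.10 and 11.1. That call rested on replicate 2: without it the log2 change was 0.64, and DESeq2 gave an adjusted p of 1. Gcg, Pcp4, Hpca, Tnmd, Smim41 and Helt were among the 25 and too low at E15 to be tested.

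**Figure D3:**
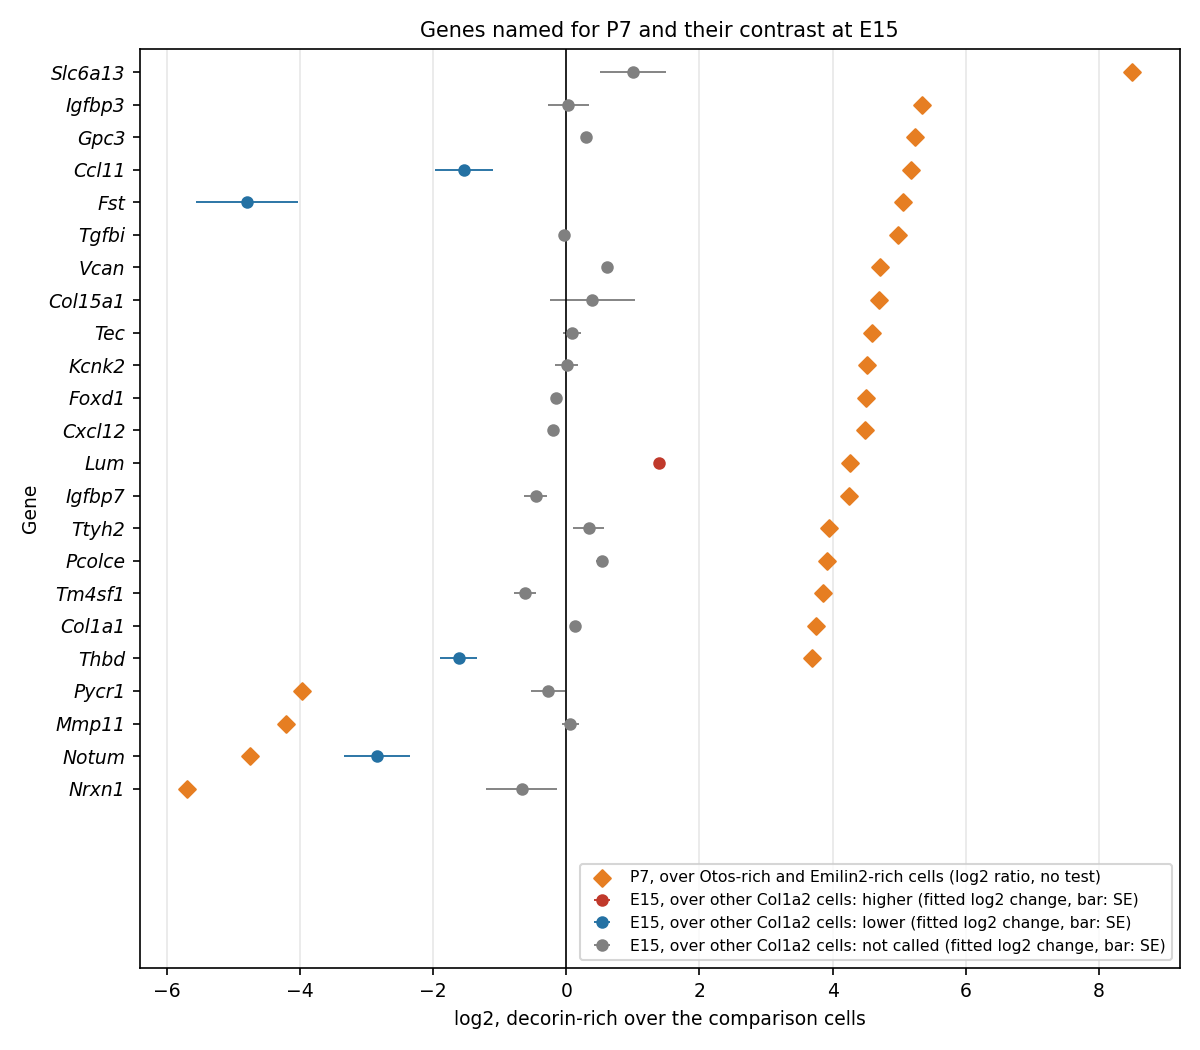
For the 23 genes named from the P7 contrast that could be tested at E15 (rows), the log2 ratio of CPM at P7 over Otos-rich and Emilin2-rich cells (diamonds, 1 library, no test) and the fitted log2 change at E15 over other Col1a2 cells (circles, 2 libraries, bar: SE). Lum is the 1 gene called higher at E15, Fst, Ccl11, Thbd and Notum are called lower by edgeR but not by DESeq2 (adjusted p 0.124 for Notum), and the other circles lie within 1 log2 unit of 0.

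Outside those 25, Coch was called higher, at 124 and 172 CPM against 35.1 and 39.3 (log2 change 2.01, SE 0.08, adjusted p 1.62e-89). Sparcl1, a matricellular relative of Sparc, stood at 458 and 479 CPM (log2 change 1.56, SE 0.06). Apod stood at 633 and 570 (log2 change 1.30, SE 0.05), and the homeobox gene Meox2 at 155 and 166 (log2 change 1.35, SE 0.08). Among the lower calls were Angpt1 (log2 change -4.10, SE 0.19), the BMP target Id2 (-2.41, SE 0.09), Igfbp5 (-1.87, SE 0.06) and Gdf10 (-1.71, SE 0.11). All 5 red cell genes tested were lower, Hbb-bs with a log2 change of -4.51 (SE 0.09), so the other cells carried more haemoglobin RNA. Its part in the other calls was not tested. Of the proteoglycan list, 2 of 7 were higher and 2 lower, and of the collagen list none of 25 was higher and 1 lower. The growth and guidance list had 8 of 32 lower and none higher.

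From E15 to P7, matrix genes rose and cell cycle genes fell in cells that met the same rule. The comparison used the summed UMIs of the rule cells in all 3 libraries and the same test and call as above. Of 12048 genes tested, 2410 (20%) were called higher at P7 and 1568 (13.0%) lower, 3978 (33.0%) in all, with a median log2 change of 0.03. Only 1 residual degree of freedom was left, from the replicate libraries at E15, and the spread was pooled over genes. The library, its dissociation, its Cell Ranger version and a shift in which cells meet the rule cannot be told apart from age. Dcn itself, a rule gene, stood at 6886 CPM at P7 and 917 and 1190 at E15, and gets no call.

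The proteoglycan list had 7 of 10 genes higher and none lower, with a median log2 change of 3.04. Lum rose from 302 and 315 CPM to 1255 (log2 change 2.15, SE 0.14, adjusted p 3.17e-54). Ogn rose from 34.2 and 28.6 to 208 (2.84, SE 0.15), Prelp from 0.64 and 0.92 to 28.7 (5.34, SE 0.41) and Omd from 1.60 and 0.46 to 53.5 (5.66, SE 0.32). Bgn stood at 139 and 172 CPM at E15 and 203 at P7, short of the fold needed (0.52, SE 0.13). P7 cells of the other classes carried some of these transcripts too: of the 7 called genes, 1 stood over 2-fold above the highest of the endothelial, macrophage and epithelial cells.

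Collagens had 12 of 24 higher and 1 lower, with a median of 1.25. Col1a1 rose from 88.9 and 86.4 CPM to 1262 (log2 change 3.97, SE 0.14), Col14a1 from 5.44 and 5.08 to 197 (5.34, SE 0.20), Col15a1 from 2.24 and 0.92 to 202 (7.00, SE 0.24) and Col8a1 from 1.92 and 0.92 to 299 (7.73, SE 0.24). The marker Col3a1 was not called, at 1593 and 1511 CPM against 1849 (0.38, SE 0.15), and Col6a3 fell from 180 and 184 to 47.9 (-1.80, SE 0.15). Chains of cartilage fibrils were among the rises, Col2a1 from 946 and 836 to 5788 (2.82), and 5 of the 12 collagens called higher stood over 2-fold above each of the 3 other classes at P7. Collagen processing genes had 13 of 22 higher and none lower, among them Sparc, the collagen chaperone Serpinh1 and Loxl1, a cross-linking enzyme. Of those 13, 2 stood over 2-fold above each of the 3 other classes.

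Other matrix genes followed. The elastic fibre list had 10 of 17 higher and none lower, with Mgp from 96.2 and 141 to 2605 CPM (log2 change 4.60, SE 0.15). Matrix glycoproteins had 20 of 30 higher and 3 lower: Igfbp7 rose from 16.3 and 14.8 to 387 (4.75, SE 0.17), and Vcan fell from 408 and 409 to 68.1 (-2.46, SE 0.15) together with the hyaluronan synthase gene Has2 and Lama4. Proteases and inhibitors had 14 of 21 higher and 1 lower, led by the serine protease Htra1, from 4.80 and 3.69 to 551 (7.11, SE 0.20). Of these rises, 1 of 10 elastic fibre and 4 of 20 glycoprotein genes stood over 2-fold above each of the 3 other classes. For proteases and inhibitors it was 3 of 14.

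The largest rises were in genes not counted, or nearly not counted, in E15 decorin-rich cells. Gcg had no UMI in either E15 sum and 15793 at P7, which is at least 1847-fold higher when both E15 sums together are set to 3 counts. This floor is about the one-sided 95% Poisson limit for a count of 0. On the same floor Dmp1 was at least 590-fold higher, Phex 277-fold, Hpca 165-fold, the Wnt antagonist Sfrp4 136-fold, Helt 116-fold, Igfbp6 115-fold and Agt 111-fold. The deiodinase gene Dio2 rose from 0 and 0.46 CPM to 215, the thyroid hormone transporter gene Slco1c1 from 0.32 and 0.46 to 365, Fst from 0 and 0.46 to 89.8 and Tnmd from 0.64 and 0 to 95.4. For Gcg, most of the P7 level came from cluster 2.

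The lists of neighbouring cell types rose too. All 12 osteoblast genes tested were higher and none lower, with a median log2 change of 7.17, or 6.67 with uncounted genes at their floor. Cartilage genes had 9 of 12 higher and fibrocyte genes 16 of 19 higher and 2 lower (Gja1 and Vim). Otor rose from 416 and 546 CPM to 2507 (2.51, SE 0.14), which is inside the 1374 to 5039 CPM of the P7 endothelial, macrophage and epithelial cells. Of the called rises, 7 of 12 osteoblast, 7 of 9 cartilage and 3 of 16 fibrocyte genes stood over 2-fold above each of these 3 classes. The part of free RNA in the others was not tested.

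Signalling lists also rose more often than they fell. TGF-beta genes had 16 of 23 higher and 2 lower, BMP genes 14 and 3 of 25, Wnt genes 14 and 5 of 30, the insulin-like growth factor axis 10 and 4 of 16, and growth and guidance genes 16 and 2 of 31. Ptn rose from 1333 and 1391 CPM to 14887 (log2 change 3.57, SE 0.17), Wnt5a from 62.3 and 43.4 to 554 (3.49, SE 0.14), Gdf10 from 30.4 and 29.6 to 478 (4.12, SE 0.15) and Igf1 from 9.91 and 8.31 to 228 (4.74, SE 0.18). The fetal mRNA-binding genes Igf2bp1, Igf2bp2 and Igf2bp3 fell while Igf2 rose from 143 and 135 to 700 (2.46, SE 0.13). Complement and immune genes had 23 of 28 higher and none lower, with a median of 4.68, or 3.57 with uncounted genes at their floor. Of those 23, 1 stood over 2-fold above each of the 3 other classes. Of the called signalling rises it was 2 of 16 TGF-beta, 2 of 14 BMP and 3 of 14 Wnt genes. For the insulin-like growth factor axis it was 1 of 10, and for growth and guidance genes 4 of 16.

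Single genes known from embryonic mesenchyme fell. Meox2 fell from 155 and 166 CPM to 5.79 (log2 change -4.66, SE 0.19), the tendon progenitor factor Scx from 131 and 150 to 17.6 (-2.87, SE 0.16), Penk from 164 and 195 to 21.9 (-2.90, SE 0.16) and the retinoic acid binding protein gene Crabp1 from 64.6 and 27.2 to 0.39 (-6.73, SE 0.34). Foxd1 fell from 315 and 360 to 145 (-1.10, SE 0.14). Mesenchymal transcription factors as a list had 15 of 40 higher and 5 lower. Among those that rose were the quiescence-linked factors Klf2 (5.22) and Klf4 (3.03), and Nfix (2.75).

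All 24 cell cycle genes fell, with a median log2 change of -4.65. Mki67 fell from 186 and 107 CPM to 5.46 (-4.64, SE 0.19) and Top2a from 375 and 272 to 11.8 (-4.65, SE 0.18). At P7, cluster 1 held them at 37.3 and 90.7 CPM. Cdkn1a, a cell cycle inhibitor, rose from 17.3 and 23.1 to 411 (4.50, SE 0.16). Immediate early and stress genes had 20 of 22 higher and none lower, with a median of 3.39. Fos rose from 212 and 308.5 to 3291 CPM, against 2578 to 3049 in P7 endothelial, macrophage and epithelial cells, which can express such genes themselves. None of the 20 stood over 2-fold above all 3 classes. Median mitochondrial UMIs were 4.11% in the P7 members and 1.83% and 1.56% in the E15 cells. Among the largest falls were replication histones, led by Hist1h3b, at least 432-fold lower on the same floor. Hist1h3b, Mrpl53, Rnasek and Fbxl7 fell to under 1 CPM here and in every P7 group. For them the software version, which differs with age, cannot be told apart from age. The histones Hist1h3c and Hist1h2ab reached at most 5.10 and 3.40 CPM in any P7 group, and Hist1h1b 28.9, and the same limit applies.

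**Figure D4:**
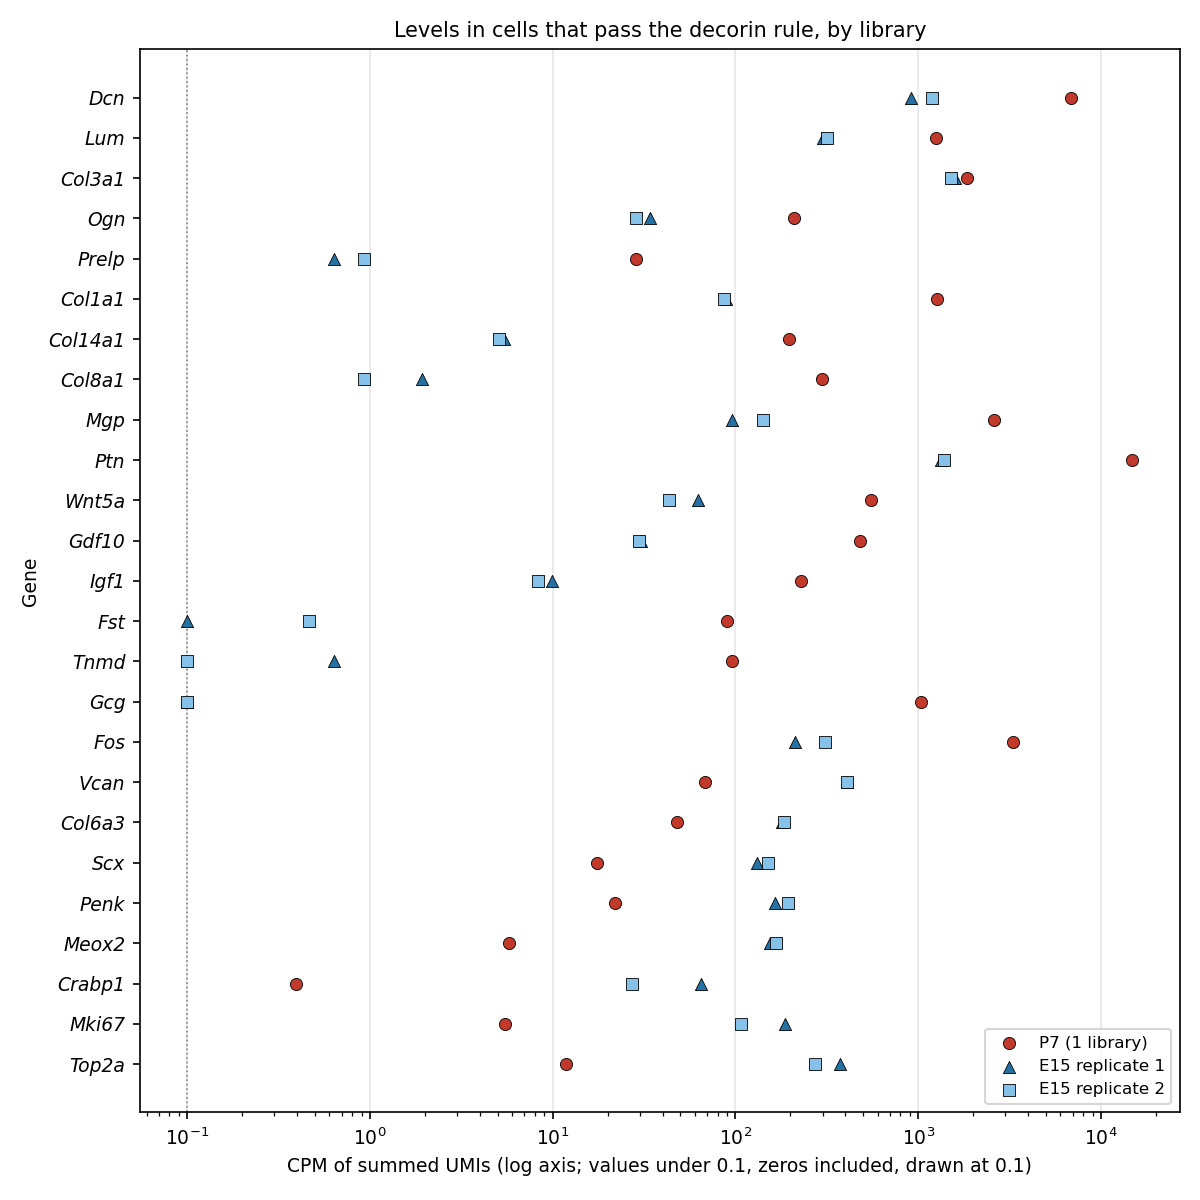
CPM of 25 genes (rows) in the cells that met the rule, 1 symbol for each library on a log axis, with values under 0.1 drawn at 0.1. The E15 replicates lie close together for most genes and further apart for Fst (0 and 0.46 CPM), Tnmd (0.64 and 0) and Crabp1. The P7 library lies above both for the matrix and signalling genes in the upper rows, and below both from Vcan to Top2a. Col3a1 stands at 1849 CPM against 1593 and 1511.

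**Figure D5:**
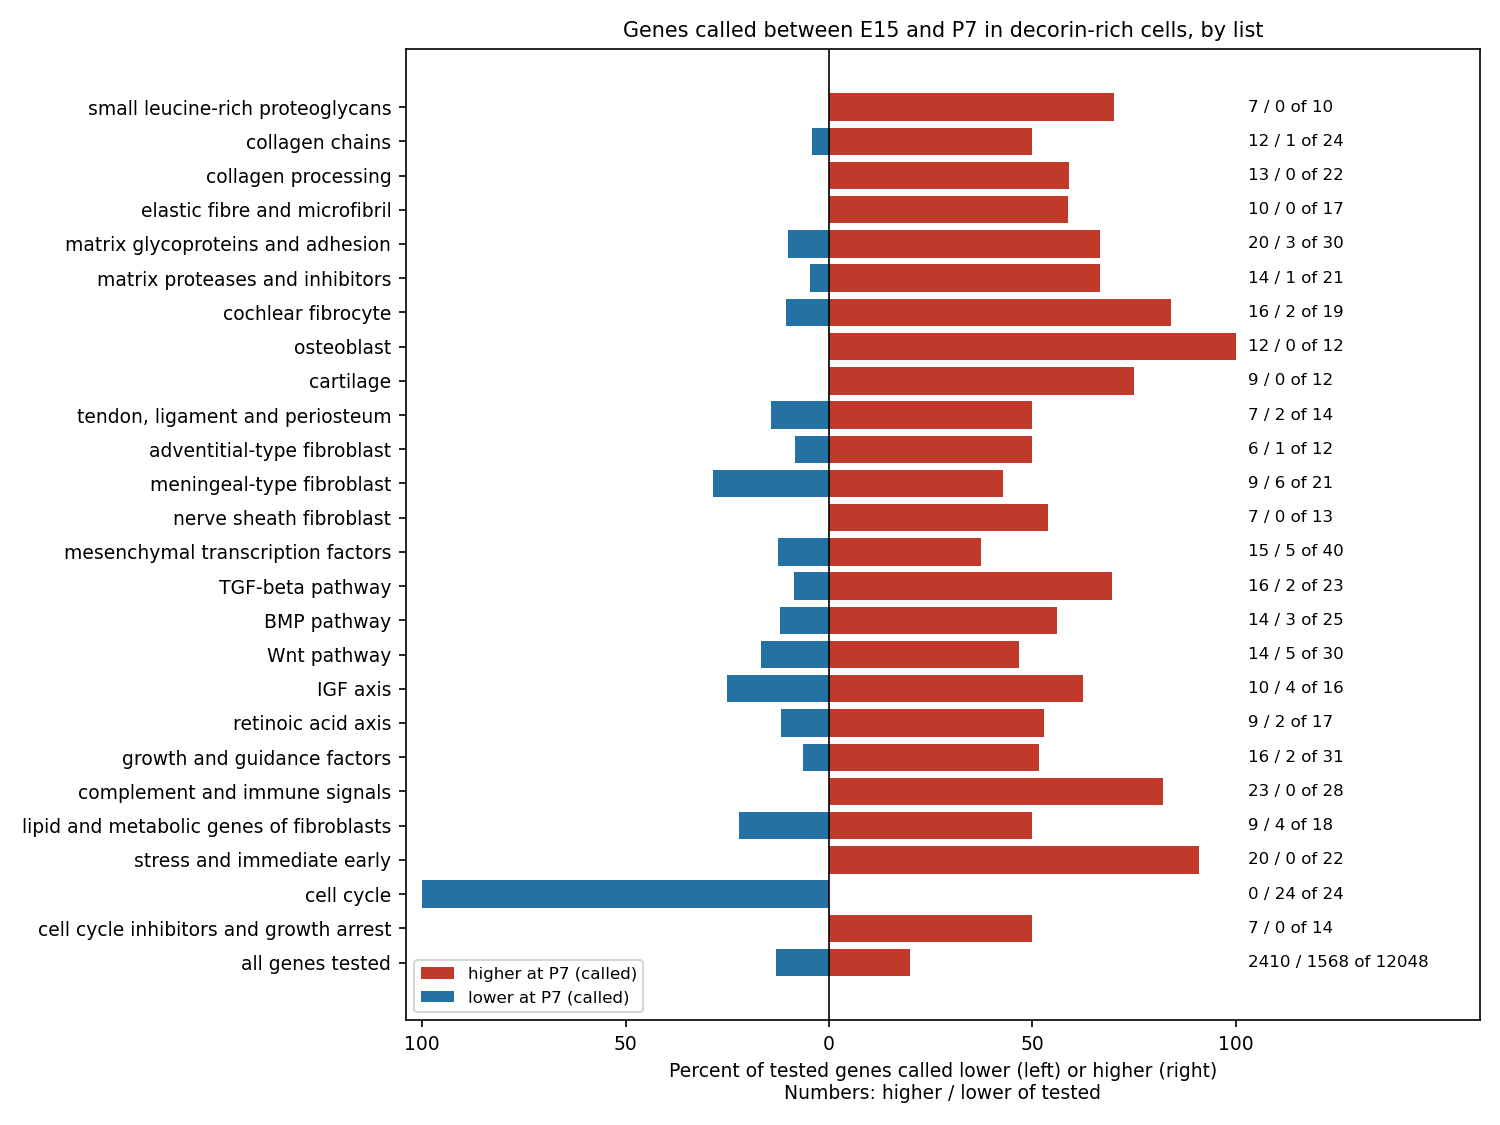
Share of the tested genes of each list called higher (right) or lower (left) at P7 than at E15 in decorin-rich cells, with the counts printed, from 1 P7 and 2 E15 libraries. All 24 cell cycle genes were lower and all 12 osteoblast genes higher, beside 13.0% and 20% of all 12048 genes.

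The age change in the decorin-rich cells was then set against that of the other Col1a2 cells in a test of the interaction, with the library as a block. At P7 these other cells include the Otos-rich, Emilin2-rich, Cnmd-rich and Bglap- or Ibsp-rich cells that the rule keeps out of the members. E15 had none of them, so a change in which cells make up the others cannot be told apart from a change within them. Of 14675 genes tested, 599 (4.08%) changed more upward in the decorin-rich cells and 336 (2.29%) more downward, 935 (6.37%) in all. Thbd went from 6.39 and 1.85 to 135 CPM in the decorin-rich cells and from 14.7 and 13.4 to 19.2 in the others (log2 difference 4.34, SE 0.23, adjusted p 4.06e-76). Cemip, a hyaluronan-degrading protein gene, went from 4.80 and 4.62 to 198 against 23.5 and 27.5 to 67.6 (3.84, SE 0.22). Nkd1, a Wnt feedback gene, went from 109 and 119 to 74.1 against 73.4 and 77.9 to 403 (-3.16, SE 0.11). Coch rose in both, from 124 and 172 to 756 and from 35.1 and 39.3 to 913 CPM, and by less in the decorin-rich cells (-2.37, SE 0.10).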

How the data were processed

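The deposited files hold raw counts of UMIs for each barcode and gene, made by the authors with Cell Ranger, version 3.1.0 for P7 and 6.1.2 for both E15 libraries per the file headers; the submitters' processing notes name 6.1.2 with GRCm38 and mm10. Genes were matched by the 27734 Ensembl IDs that all libraries list. The members and the gene lists were chosen with earlier results of these data known. UMIs were summed per library and cell group. Sums were tested with edgeR 4.0.16 (limma 3.58.1, R 4.3.3): TMM scaling, filterByExpr, the quasi-likelihood test, Benjamini-Hochberg adjustment and a call at adjusted p under 0.05 and a fold of at least 2. DESeq2 1.42.0 was an alternative. SE is the log2 change over the square root of F. Rule genes got no call. The fits were tested on simulated data. Clustering used scanpy 1.11.5 in Python 3.11.15 (10000 counts per cell, 2000 variable genes, 20 components, 15 neighbours, resolution 0.5). Intervals are exact 95% Poisson or binomial. Genes were named by size of change among those of at least 50 CPM, plus list members; for rises with age, the P7 level also had to reach 30% of the highest P7 group. Doublets were scored with Scrublet and kept. Cebpd is not analysed here.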

Additional observations from a re-analysis of the deposited data

Results flagged for a closer look

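The age change differed between decorin-rich cells and the other Col1a2 cells, by the interaction test in edgeR. For 10 named genes the fitted upward change was larger in decorin-rich cells. The log2 differences were 10.09 for Hpca, 9.49 for Pcp4, 8.70 for Gcg, 6.75 for Dmp1, 6.35 for Ecrg4, 6.01 for Fst, 4.34 for Thbd, 4.13 for Hba-a2, 3.96 for Ccl11 and 3.84 for Cemip. Hpca, Pcp4, Gcg, Dmp1 and Ecrg4 had no UMI in the decorin-rich E15 cells, so the size of their fitted difference depends on the prior count. Ecrg4 also rose in the others, from 2.34 and 2.91 to 2385 CPM, above the 748 of the decorin-rich cells at P7. Dmp1 rose from 0.42 and 0.26 to 113 in the others, against 332 at P7 in the decorin-rich cells. With DESeq2 the calls for Pcp4, Dmp1, Ecrg4, Fst and Ccl11 were lost, at adjusted p of 0.11, 0.36, 0.783, 0.322 and 1. With glmTreat those for Dmp1 and Ecrg4 were lost too, at adjusted p of 0.193 and 0.233, and that for Ecrg4 without the filter on low counts, at 0.0576. The Ccl11 difference was 1.815 without E15 replicate 2 and 12.851 without E15 replicate 1. That of Fst was 10.87 and 4.65, and that of Thbd was 5.62 without E15 replicate 1. Hba-a2, a haemoglobin gene, stood at 7.99 and 6.93 CPM at E15 and 128 at P7 in decorin-rich cells, and at 254, 161 and 190 CPM in the others.

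For 10 named genes the change was more downward in decorin-rich cells. The log2 differences were -3.16 for Nkd1, -2.95 for Rflnb, -2.80 for Nkx6-1, -2.37 for Coch, -2.30 for St3gal1, -2.24 for Jcad, -2.20 for Fabp5, -2.03 for Limch1, -1.97 for Nes and -1.93 for Rac3. All 10 were called by edgeR, with a test against a fold of 2 (glmTreat) and with DESeq2. The P7 side of each difference is 1 library, and its other Col1a2 cells include groups that had no cell at E15.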

How the results depend on the processing

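The number of members depends on the Dcn threshold: it was 1533 at P7 and 343 and 343 at E15 with 5 UMIs, 1012, 41 and 37 with 20 UMIs, and 75 and 111 at E15 with 0.1% of UMIs in place of 10. At P7 the genes at least 2-fold higher were 687 against Emilin2-rich cells alone, 236 against all other cells and 234 with a floor of 50 CPM, which left 185 lower. Against Otos-rich cells alone the ratio of Notumos was 1.15, and against Emilin2-rich cells alone that of Bcan was 1.29, both turned from lower to higher. With age, DESeq2 called 1469 higher and a test against a fold of 2 (glmTreat) 977 lower. In the E15 contrast, 20 UMIs of Dcn gave 61 higher and 158 lower, glmTreat 27 and 73, and DESeq2 48 and 88. In the interaction, glmTreat gave 243 and 124 and DESeq2 168 and 98. Clusters numbered 14 at resolution 1, where 42.5% of the cells of cluster 2, 61.5% of cluster 3 and 69.8% of cluster 8 stayed together and 89.8% or more of each other cluster. With 10 components it was 60.9% of cluster 8 and 78.1% of cluster 2. The causes were not tested. The other 68 values of these results stayed within the limits set for no change. The log2 change of Ccl11 at E15 ran from -9.603 without replicate 1 to 0.636 without replicate 2, the 1 called change of direction among 184 gene values with a replicate left out. In the same contrast, without replicate 1, Slc6a13, Igfbp3 and Col15a1, none of them called, turned to -1.99, -1.33 and -0.69. DESeq2 lost the call for Notum, at adjusted p of 0.124. The log2 changes of Fst were -3.36 and -8.95 and those of Notum -1.63 and -4.53 without replicate 1 and without replicate 2. With age, leaving out an E15 library gave log2 rises of 8.90 and 13.96 for Dio2, 7.64 and 12.70 for Fst and 7.27 and 12.71 for Tnmd, all of which had almost no E15 UMIs.

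The E15 contrast pairs both sums of a library, and without the replicate block it called 92 higher and 223 lower. No paired analysis was possible for the age comparison because P7 has 1 library. Genes under about 20 CPM rest on few UMIs in the E15 sums, which held 3150218 and 2180540.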
